A study of Mus musculus with 20 samples.

Results

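The genes described here were 8 regulators that exercise or adrenergic signalling through cyclic AMP (cAMP) is known to induce in muscle: the coactivators Ppargc1a and Ppargc1b, the orphan nuclear receptors Nr4a1, Nr4a2 and Nr4a3, the kinase Sik1, the transcription factor Crem and the insulin receptor substrate Irs2. They were chosen by symbol, and each symbol was matched to its Ensembl identifier in the deposited count table, which held 55401 genes. All 8 passed the filter on low counts, which kept 13626 genes.

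Contraction and adrenaline raise calcium and cAMP in the muscle fibre, and protein kinase A then activates CREB, a factor bound to cAMP response elements (CRE) in promoters, which switches on a wave of short-lived transcripts. The NR4A receptors, Sik1, an inducible repressor form of Crem and Irs2 belong to that wave, and Ppargc1a is induced with it and raises mitochondrial and oxidative genes. Ppargc1b acts on an overlapping set of mitochondrial genes and is less tied to cAMP.

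RNA of the gastrocnemius, the large calf muscle, was sequenced after ribosomal RNA depletion in 20 C57BL/6 mice, all 24 months old and either bought aged or bred in-house. The 10 HK-treated mice (5 males and 5 females) had received Haenkenium (HK), an extract made from Salvia haenkei, a sage, with their drinking water at 0.5 mg per kg per day for 4 months, from the age of 20 months. The 10 untreated mice (5 males and 5 females) drank water. The labels put replicates 1 and 2 of each sex and treatment in batch 1 (8 mice, 4 of them HK-treated) and replicates 3, 4 and 5 in batch 2 (12 mice, 6 of them HK-treated). The comparison between HK-treated and untreated mice asks what 4 months of HK changed in aged muscle, and young mice were not analysed here.

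The libraries held between 13900180 and 30469644 counts, with mitochondrial genes taking 6.31% to 9.97%. Libraries of batch 1 ran from 13994011 to 30469644 counts and those of batch 2 from 13900180 to 17951683. No pair of mice of the same sex, treatment and batch agreed within sampling noise. The fast fibre markers summed to at least 174200 in every mouse in CPM (counts scaled by library size). HK-treated male 3 had the highest level of all 20 mice for 6 of the 8 genes. The treatment estimates of these 6 over all mice are also given without it, while group levels and subset estimates are not.

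The promoters of the members are shown because CREB binds CRE sequences there. RefSeq (GRCm38.p6) gave a promoter of 250 bases before to 50 bases after the start site for 5 of the 8 genes. Capitals mark the core of a CRE, TGACG or its reverse complement CGTCA. The promoter of Nr4a1 lay at chr15:101266596-101266895 on the plus strand, that of Nr4a2 at chr2:57123954-57124253 on the minus strand, that of Nr4a3 at chr4:48045055-48045354 on the plus strand, and that of Ppargc1a at chr5:51567676-51567975 on the minus strand. Written 5′ to 3′ on the strand of the gene, they read as follows.
Nr4a1: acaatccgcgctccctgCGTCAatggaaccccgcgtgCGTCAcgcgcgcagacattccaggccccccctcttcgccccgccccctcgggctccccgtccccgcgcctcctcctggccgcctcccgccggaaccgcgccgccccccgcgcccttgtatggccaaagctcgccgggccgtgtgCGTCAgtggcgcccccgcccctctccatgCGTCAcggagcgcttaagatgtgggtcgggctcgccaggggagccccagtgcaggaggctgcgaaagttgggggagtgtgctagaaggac
Nr4a2: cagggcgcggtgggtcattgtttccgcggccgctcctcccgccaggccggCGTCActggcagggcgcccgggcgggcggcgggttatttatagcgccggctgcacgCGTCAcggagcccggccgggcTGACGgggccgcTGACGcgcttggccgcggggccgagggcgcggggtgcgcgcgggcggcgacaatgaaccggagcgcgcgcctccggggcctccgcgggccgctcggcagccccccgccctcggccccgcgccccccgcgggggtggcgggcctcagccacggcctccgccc
Nr4a3: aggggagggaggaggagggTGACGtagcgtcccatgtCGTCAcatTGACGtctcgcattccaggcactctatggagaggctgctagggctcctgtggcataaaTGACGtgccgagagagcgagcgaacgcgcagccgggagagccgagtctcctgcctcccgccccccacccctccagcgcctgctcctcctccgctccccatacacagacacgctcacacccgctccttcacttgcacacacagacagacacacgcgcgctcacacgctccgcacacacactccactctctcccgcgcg
Ppargc1a: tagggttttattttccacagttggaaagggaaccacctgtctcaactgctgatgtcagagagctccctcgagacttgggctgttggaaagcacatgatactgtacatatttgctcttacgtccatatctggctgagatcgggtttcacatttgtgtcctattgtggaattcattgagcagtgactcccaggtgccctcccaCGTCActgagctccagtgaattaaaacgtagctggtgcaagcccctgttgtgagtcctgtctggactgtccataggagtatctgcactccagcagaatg

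Each of the NR4A promoters held 4 CRE cores. In Nr4a1 the cores began 233, 213, 69 and 40 bases before the start site. In Nr4a2 they began 200, 144, 123 and 111 bases before it, and in Nr4a3 231, 213, 205 and 147 bases before it. The Ppargc1a promoter held 1 core, 49 bases before the start site, and the Irs2 promoter (chr8:11008880-11009179, minus strand) held none of these letters. Over all 32851 promoters in the table, 20.8% held at least 1 core, 5.01% at least 2 and 0.231% at least 4. The complete palindrome TGACGTCA was in none of the 5 promoters and in 1.79% of all. A match of letters is a description of the sequence and not a measured binding site. GC content was 72.3% for Nr4a1, 81.7% for Nr4a2, 64.7% for Nr4a3, 48.7% for Ppargc1a and 72.0% for Irs2, against a median of 52.7% over all promoters.

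In the GENCODE annotation of the same build, Nr4a1 spanned bases 101254269 to 101274795 of chromosome 15, Nr4a2 57106830 to 57124003 of chromosome 2, Nr4a3 48045153 to 48086447 of chromosome 4 and Sik1 31844250 to 31855804 of chromosome 17. Ppargc1a spanned 51454250 to 51567726 of chromosome 5 and Irs2 10984681 to 11008458 of chromosome 8, while Ppargc1b and Crem lay on chromosome 18. The RefSeq promoter of Irs2 lay wholly upstream of the start of Irs2 in this annotation, base 11008458. The sequence next to that start was not searched for CRE cores. Counts were made per gene, so alternative starts were not told apart. For Ppargc1a, the other annotated starts included 3 that lay 13803 to 13854 bases downstream of the printed start. The receptors too had annotated starts outside the printed promoters, among them base 101254269 for Nr4a1, 57115038 for Nr4a2 and 48049114 for Nr4a3. CRE cores near those starts were not counted. Likewise the repressor form of Crem could not be separated from its other transcripts. Irs2 and Crem each overlapped 1 transcript of the opposite strand, Ppargc1a overlapped 4 tentative loci and Ppargc1b overlapped 2 microRNA genes, and reads shared with these could not be told apart.

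Per length of exon, Nr4a1 was the most abundant of the 8 genes in the untreated muscle, at 53.9 ± 36.3 RPKM (CPM divided by the exon length in kilobases; mean ± SD, n = 10 mice). It exceeded Ppargc1a, the next gene at 13.5 ± 8.70 RPKM, in 10 of 10 mice, by a median ratio of 4.28. Sik1 (7.59 ± 6.83 RPKM), Irs2 (6.83 ± 4.45 RPKM) and Nr4a3 (5.66 ± 6.08 RPKM) followed, and these neighbours changed places from mouse to mouse, with Sik1 above Irs2 in 6 of 10 and Irs2 above Nr4a3 in 7 of 10. Crem reached 2.27 ± 0.502 RPKM and Ppargc1b 1.64 ± 0.381 RPKM. Nr4a2 was the lowest at 0.669 ± 0.807 RPKM, below Ppargc1b in 9 of 10 untreated mice. For every pair of neighbours in this order the ranges of mean ± SD overlapped.

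In HK-treated mice Nr4a1 was again the highest at 98.9 ± 69.7 RPKM, above the next gene in 10 of 10 mice. Irs2 (17.2 ± 15.2 RPKM), Sik1 (16.6 ± 14.04 RPKM), Nr4a3 (11.3 ± 13.2 RPKM) and Ppargc1a (11.1 ± 7.32 RPKM) came after it. Nr4a2 stood at 3.57 ± 5.80 RPKM, Crem at 2.88 ± 1.53 RPKM and Ppargc1b at 1.85 ± 0.463 RPKM. Neighbours overlapped in this group too, with Irs2 above Sik1 in 5 of 10 mice. Nr4a3 was above Ppargc1a in 4 of 10 mice and Nr4a2 above Crem in 3 of 10. For these pairs the order of the means was therefore not that of most mice.

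In the comparison of treatment, 7 of the 8 genes had a higher fitted level in HK-treated mice and 1, Ppargc1a, a lower. None of the 8 passed the adjusted threshold of 0.05 in edgeR's quasi-likelihood fit, which also held batch and sex, and none of the 13626 genes did (0%). At an unadjusted p under 0.05, 5 of the 8 were higher in HK-treated mice (Nr4a1, Nr4a2, Nr4a3, Sik1 and Irs2), against 2.78% of all genes tested (379 higher, with 456 lower). DESeq2 called 6 genes higher and 1 lower at the adjusted threshold and limma voom called none, with no member among them. Levels are CPM scaled by edgeR's TMM factors, and folds are those of the fit. In whole muscle, a change in the number of cells of a type and a change in RNA per cell cannot be told apart.

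The NR4A receptors are transcription factors that bind DNA without a known ligand and act on glucose and lipid genes of muscle. Nr4a1 had a lowest, median and highest level of 80.25, 138 and 468 CPM in untreated mice and of 102, 331 and 871 CPM in HK-treated mice. The ranges overlapped, although 8 of 10 HK-treated mice exceeded the median of the untreated mice of their own batch and 3 lay above the highest untreated mouse. Its log2 fold change was 0.75 (SE 0.243, 95% interval 0.23 to 1.26, 1.68-fold), with an unadjusted p of 0.00588 and an adjusted p of 0.795. An exact permutation test within sex and batch gave a two-sided p of 0.00889 on log2 CPM. Without HK-treated male 3 the edgeR log2 fold change was 0.57.

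Nr4a2, the scarcest receptor, ran from 0.525 over a median of 1.58 to 10.7 CPM in untreated mice. In HK-treated mice it ran from 0.765 over 5.29 to 77.0 CPM. The highest value was that of HK-treated male 3, and 8 of 10 HK-treated mice exceeded the median of untreated mice in their batch. The log2 fold change of 2.16 (SE 0.618, interval 0.85 to 3.47, 4.47-fold) was the largest of the 8, with an unadjusted p of 0.00226, an adjusted p of 0.795 and an exact permutation p of 0.0103. Without HK-treated male 3 it was 1.48. The counts behind it were low, from 9 in untreated male 1, for which counting error alone allows 4.12 to 17.1 (95% Poisson interval), to 1199.

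Nr4a3 spanned 2.63, 20.8 and 115.5 CPM as lowest, median and highest in untreated mice, and 4.15, 34.8 and 247 CPM in HK-treated mice. Here too 8 of 10 HK-treated mice exceeded the median of untreated mice in their batch, but over both batches together the groups overlapped widely. On the log2 scale the fold change was 1.11 (SE 0.441, interval 0.17 to 2.04, 2.15-fold; unadjusted p of 0.0206, adjusted p of 0.795). The exact permutation p was 0.0976, and without HK-treated male 3 the edgeR estimate was 0.80 with an unadjusted p of 0.0562.

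**Figure D1:**
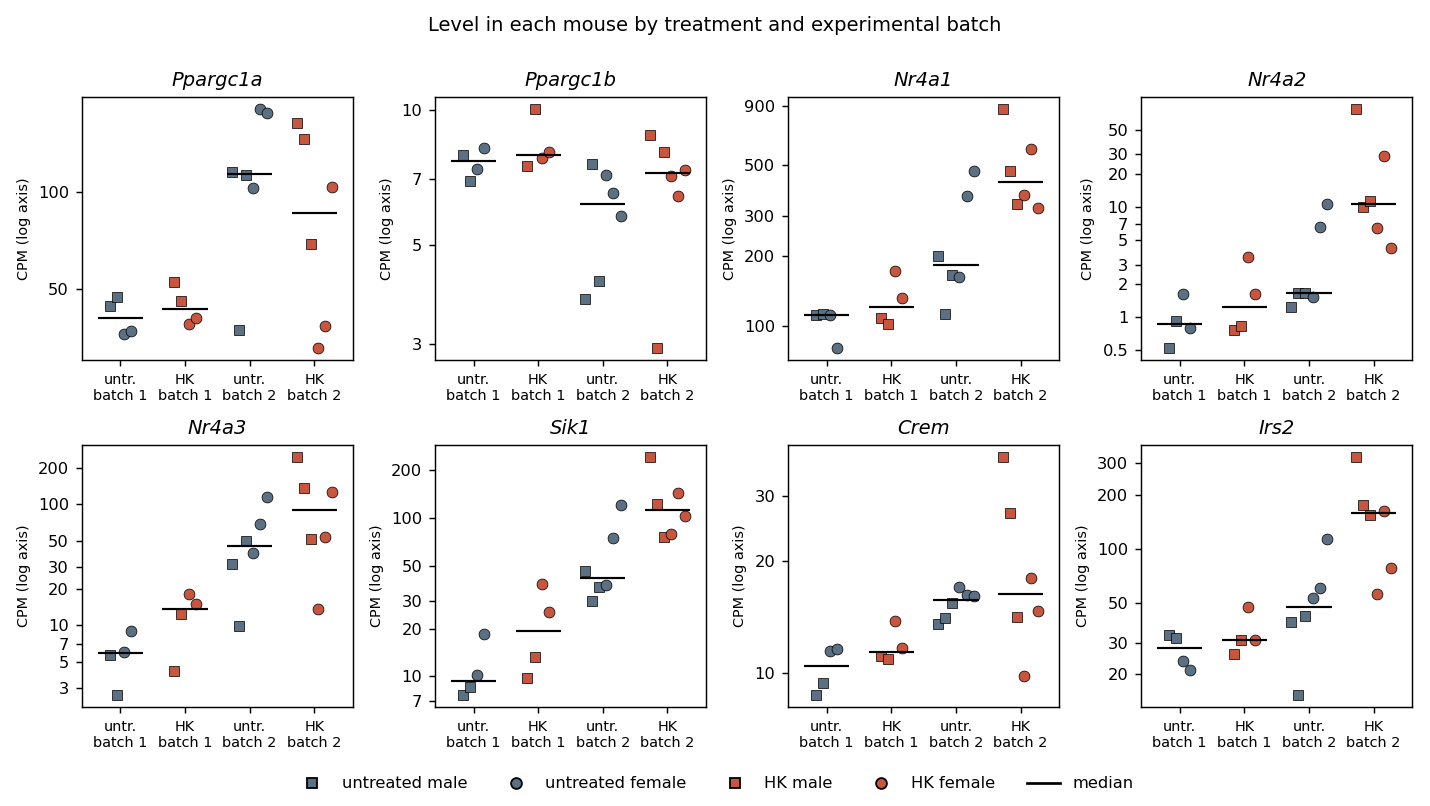
Level of each of the 8 genes in every mouse, in CPM on a log axis, by treatment and batch; squares are males, circles females and bars medians. Nr4a1, Nr4a2, Nr4a3, Sik1, Crem and Irs2 reached their highest level in the same HK-treated male (Nr4a1 871 CPM), and Ppargc1b showed no such spread.

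Sik1 is a kinase that is itself a CREB target and feeds back on the CREB coactivators and the class IIa histone deacetylases. It had a lowest, median and highest level of 7.59, 33.3 and 119.6 CPM in untreated mice and of 9.83, 77.25 and 243 CPM in HK-treated mice. All 10 HK-treated mice lay above the median of the untreated mice of their own batch, and also above that of their own sex and batch. The log2 fold change was 1.15 (SE 0.271, interval 0.58 to 1.73, 2.22-fold). With an unadjusted p of 0.000391, Sik1 ranked 7 among the 13626 genes by p, and its adjusted p was 0.722. The exact permutation test gave p = 0.00111, and leaving out any single mouse left the estimate between 0.90 (without HK-treated male 3) and 1.28.

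Crem codes for activators and repressors that bind the same elements as CREB. Its levels lay close together, with 8.70, 13.8 and 17.1 CPM as lowest, median and highest in untreated mice. In HK-treated mice they were 9.84, 14.01 and 38.4 CPM, so that the medians almost coincided while 3 HK-treated mice lay above every untreated mouse, males 3 and 4 by the widest margin. Its log2 fold change was 0.31 (SE 0.174, interval -0.06 to 0.68; unadjusted p of 0.0898, adjusted p of 0.805, exact permutation p of 0.199). Without HK-treated male 3 it was 0.15.

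Irs2 carries the signal of the insulin receptor to phosphoinositide 3-kinase, and its gene responds to cAMP and to FoxO factors. Untreated mice had a lowest, median and highest level of 15.2, 36.1 and 113 CPM, and HK-treated mice 25.8, 67.0 and 326 CPM. In 9 of 10 HK-treated mice the level was above the untreated median of the batch, and in 4 it was above the highest untreated mouse. Its log2 fold change was 1.048 (SE 0.336, interval 0.33 to 1.76, 2.07-fold), with an unadjusted p of 0.00539, an adjusted p of 0.795 and an exact permutation p of 0.0140. Without HK-treated male 3 the log2 fold change was 0.85.

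Neither coactivator had an unadjusted p under 0.05 for treatment. Ppargc1a had a lowest, median and highest level of 36.3, 75.2 and 182 CPM in untreated mice and of 32.8, 49.2 and 164 CPM in HK-treated mice. No HK-treated mouse lay above the highest untreated mouse, and 5 of 10 lay above the untreated median of their batch. The log2 fold change was -0.23 (SE 0.282, interval -0.82 to 0.37; unadjusted p of 0.434, adjusted p of 0.909, exact permutation p of 0.471). It was -0.091 without HK-treated female 3 and -0.36 without untreated male 4.

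Ppargc1b stayed within 3.79 and 8.20 CPM in untreated mice (median 7.06) and within 2.945 and 10.0 CPM in HK-treated mice (median 7.65). The log2 fold change was 0.18 (SE 0.151, interval -0.14 to 0.50; unadjusted p of 0.239, adjusted p of 0.850, exact permutation p of 0.357). The intervals of both coactivators held 0 and did not reach the estimates of Irs2, Sik1 or Nr4a3.

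The filter on low counts mattered for the calls. With every gene that had at least 1 count (30096 genes), edgeR called 247 genes higher and 255 lower, and 6 of the 8 genes were among those higher. In that fit the prior degrees of freedom of the quasi-likelihood dispersion were infinite, so every gene took the fitted dispersion, whereas with the filter they were 4.26 beside 16 residual degrees of freedom. The fold changes of the 8 genes kept their directions.

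**Figure D2:**
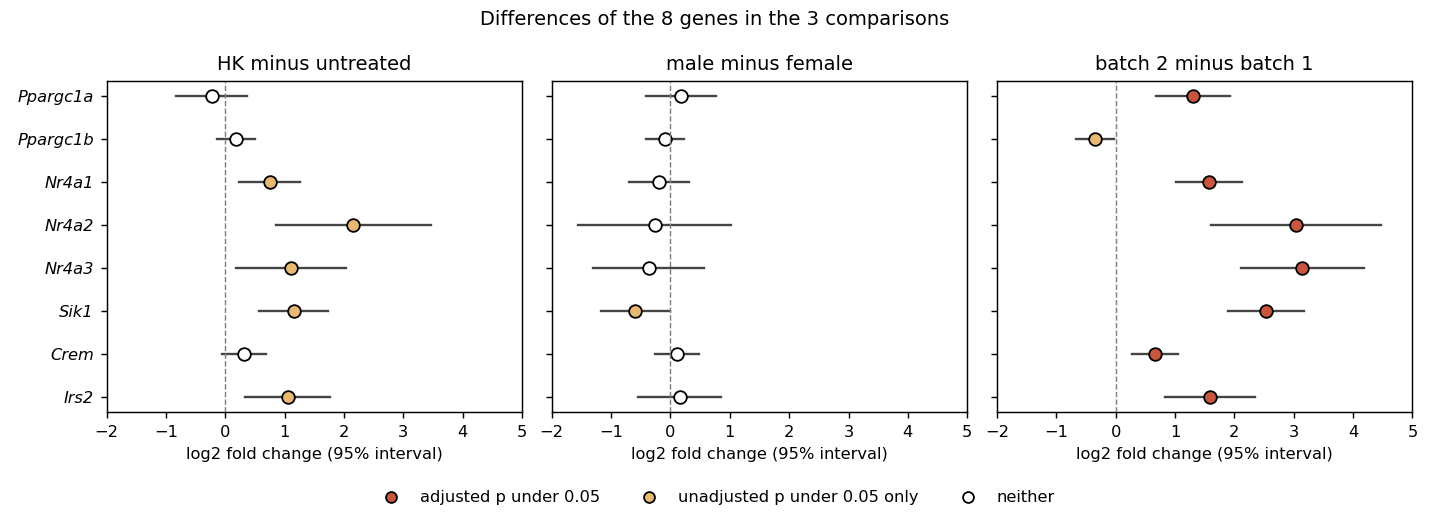
Log2 fold changes of the 8 genes with 95% intervals for HK minus untreated, male minus female and batch 2 minus batch 1; the fill gives the side of the threshold. The 5 genes at an unadjusted p under 0.05 for treatment lie between 0.75 and 2.16, and 7 genes lie to the right of 0 and pass the adjusted threshold for batch.

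Batch was the larger difference for these genes. In the same fit 7 of the 8 were higher in batch 2 at the adjusted threshold, against 18.2% of all genes tested that were higher and 19% that were lower. For Nr4a3 the levels were 2.63, 7.50 and 17.99 CPM (lowest, median and highest of 8 mice) in batch 1 and 9.90, 52.7 and 247 CPM (12 mice) in batch 2. The groups shared only a narrow zone, and the log2 fold change was 3.15 (SE 0.491, 8.87-fold, adjusted p of 0.000101).

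Nr4a2 went from a median of 0.878 CPM in batch 1 to 6.46 CPM in batch 2 (log2 fold change 3.03, SE 0.675, adjusted p of 0.00175). Sik1 went from 11.7 to 77.25 CPM (2.53, SE 0.301, adjusted p of 6.14e-06), which was the lowest adjusted p of the 8 genes for batch. Nr4a1 went from 111.5 to 353 CPM (1.57, SE 0.259, adjusted p of 0.000154). The 3 receptors and Sik1 were thus from 2.98-fold to 8.87-fold higher in batch 2.

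Irs2 had a median of 30.8 CPM in batch 1 and of 69.3 CPM in batch 2 (log2 fold change 1.59, SE 0.355, adjusted p of 0.00179). Ppargc1a rose with it, from 42.5 to 108 CPM (1.31, SE 0.294, adjusted p of 0.00193). Crem moved least among the 7, from 11.3 to 15.8 CPM (0.66, SE 0.180, adjusted p of 0.00703). Ppargc1b differed in the other direction, with medians of 7.88 and 6.82 CPM (-0.34, SE 0.153, unadjusted p of 0.0353, adjusted p of 0.0821), and it passed the adjusted threshold under limma voom.

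Among untreated mice alone, all 6 mice of batch 2 lay above all 4 of batch 1 for Nr4a1, Nr4a3, Sik1 and Crem, against 5.5% of all genes. Among HK-treated mice alone the same held for Nr4a1, Nr4a2, Sik1 and Irs2, against 3.7% of all genes. Ppargc1a was tight in batch 1, from 36.3 to 52.5 CPM, and spread from 32.8 to 182 CPM in batch 2. Thus the mice of batch 2 were both higher and more variable for that gene. The batches also differed in markers of other cells: all 10 macrophage markers tested were higher in batch 2 at the adjusted threshold, with a median summed level of 152 CPM against 43.9 CPM, and all 7 markers of fibro-adipogenic progenitors were higher, at 536 against 321 CPM. No marker of either list was at 0 in all mice, and their part in the batch difference was not tested.

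The treatment difference was therefore read within batches and sexes. In batch 1 alone the log2 fold changes were 0.88 for Sik1 (unadjusted p of 0.00321), 1.07 for Nr4a3 (0.00796), 0.21 for Crem (0.0438), 0.77 for Nr4a2 (0.0652), 0.30 for Nr4a1 (0.102) and 0.31 for Irs2 (0.156). In batch 2 alone they were 1.23 for Sik1 (unadjusted p of 0.00582), 1.58 for Irs2 (0.00695), 2.595 for Nr4a2 (0.00786), 1.08 for Nr4a1 (0.00882), 1.01 for Nr4a3 (0.151) and 0.35 for Crem (0.193). Of the 8 genes, Sik1 alone had an unadjusted p under 0.05 in both batches. The share of all genes at that p was not counted within each batch. These p-values therefore do not show whether the 8 genes stood out from other genes. The difference between batches in the treatment effect was itself tested, and none of the 8 genes had an unadjusted p under 0.05 (3.01% of 13800 genes did, and 0% at the adjusted threshold; DESeq2 and limma voom called none of these genes either). The nearest was Irs2, at 1.26 (unadjusted p of 0.0649, adjusted p of 0.9997).

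In the 6 males of batch 2, all 3 HK-treated mice lay above all 3 untreated mice for 5 of the 8 genes (Nr4a1, Nr4a2, Nr4a3, Sik1 and Irs2), against 7.18% of all genes. For Irs2 the untreated males of batch 2 had 15.2, 39.0 and 42.0 CPM and the HK-treated males 155, 175 and 326 CPM. For Nr4a2 the values were 1.24, 1.64 and 1.66 CPM against 10.0, 11.2 and 77.0 CPM. Both genes thus separated these groups widely, HK-treated male 3 apart.

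In the 6 females of batch 2 the groups overlapped for all 8 genes, with 3.01% of all genes higher in every HK-treated mouse. For Irs2 the untreated females there had 52.9, 60.3 and 113 CPM and the HK-treated females 55.7, 78.3 and 163 CPM. In the 4 females of batch 1 both HK-treated mice lay above both untreated mice for 7 of the 8 genes, Ppargc1b being the exception, against 18.1% of all genes. For Nr4a2 (1.632 against 1.628 CPM) and Crem (11.67 against 11.61 CPM) HK-treated female 2 was almost level with the higher untreated mouse. In the 4 males of batch 1 this held for Sik1 and Crem, against 14.5% of all genes, while Nr4a1 and Irs2 were lower in both HK-treated males, against 13.9% of all genes. Sik1 in those males was 7.59 and 8.57 CPM untreated and 9.83 and 13.2 CPM treated.

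**Figure D3:**
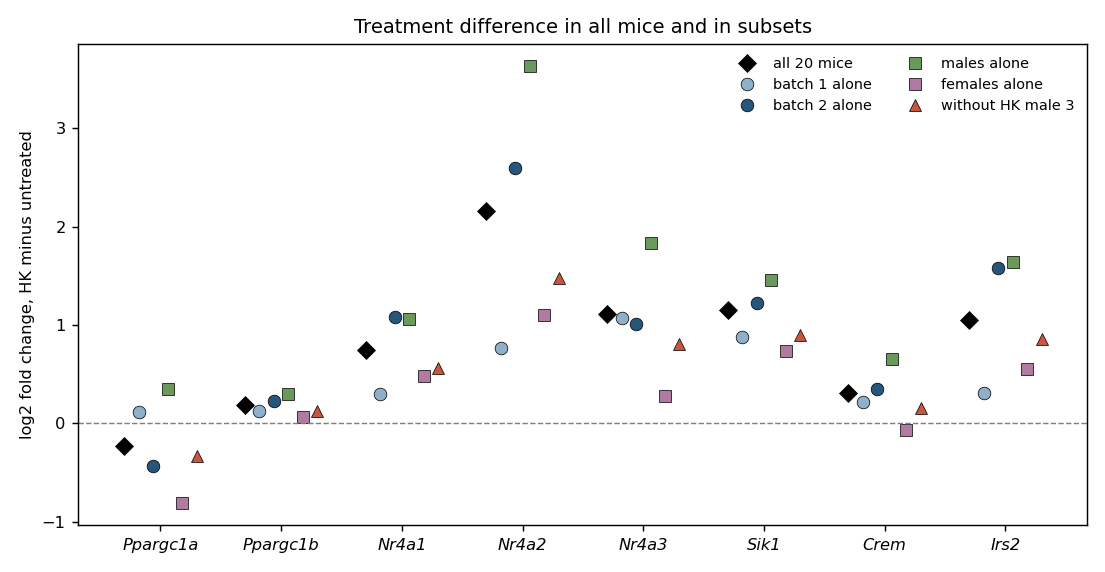
Log2 fold change for HK minus untreated of each gene in all 20 mice, within each batch, within each sex, and without HK-treated male 3. Sik1 lies between 0.74 and 1.46 in every subset, whereas Ppargc1a lies at 0.35 in males and at -0.81 in females.

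In males alone the log2 fold changes were 3.63 for Nr4a2, 1.84 for Nr4a3, 1.64 for Irs2, 1.46 for Sik1, 1.06 for Nr4a1, 0.66 for Crem, 0.35 for Ppargc1a and 0.30 for Ppargc1b. In females alone the values were 1.11 for Nr4a2, 0.28 for Nr4a3, 0.55 for Irs2, 0.74 for Sik1, 0.48 for Nr4a1, -0.07 for Crem, -0.81 for Ppargc1a and 0.06 for Ppargc1b. The estimate was larger in males for each of the 8 genes, and the test of that difference gave an unadjusted p under 0.05 for Crem (0.73, SE 0.314, p of 0.0303), Ppargc1a (1.17, SE 0.507, p of 0.0318) and Nr4a2 (2.43, SE 1.14, p of 0.0461). The share over all 13800 genes was 3.5% (483 genes). All had an adjusted p of 0.998, no gene was called (0%; edgeR, with none under DESeq2 or limma voom), and without HK-treated male 3 none of the 8 genes had an unadjusted p under 0.05.

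For Ppargc1a the values are given by sex and batch. In batch 2 the untreated females had 103, 176 and 182 CPM and the HK-treated females 32.8, 38.3 and 104 CPM. HK-treated females 3 and 4 were below the untreated females of that batch, and female 5 overlapped them. The untreated males of batch 2 had 37.3, 113 and 115.5 CPM and the HK-treated males 69.3, 147 and 164 CPM. In batch 1 the untreated females had 36.3 and 37.0 CPM and the HK-treated females 38.8 and 40.8 CPM, so both treated females were higher there, the opposite of batch 2. The males of batch 1 overlapped, with 44.2 and 47.2 CPM untreated and 45.9 and 52.5 CPM treated.

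Between the sexes none of the 8 genes passed the adjusted threshold, against 16.1% of all genes tested. At an unadjusted p under 0.05 there was 1, against 30.3% of all genes: Sik1 was lower in males, with a log2 fold change of -0.59 (SE 0.272, unadjusted p of 0.0422, adjusted p of 0.147). Its lowest, median and highest levels were 7.59, 33.3 and 243 CPM in males and 10.3, 56.6 and 142 CPM in females, so the ranges overlapped. Without HK-treated male 3 the estimate was -0.83 (unadjusted p of 0.000937) and 1 of the 8 genes was called. Without untreated female 5 it was -0.46 (unadjusted p of 0.103). Leaving out each of the 20 mice in turn, the unadjusted p of Sik1 was under 0.05 in 8 fits. DESeq2 and limma voom called none of the 8.

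From mouse to mouse most of the genes varied together. Log2 CPM was adjusted for batch, sex and treatment, and r was computed over the 20 mice for the 28 pairs, with two-sided permutation within sex and batch (100000 resamples) and Benjamini-Hochberg adjustment over the pairs. The median r was 0.55, with a range of -0.25 to 0.88, and 13 of 28 pairs had an adjusted permutation p under 0.05 by Pearson's r and 9 by Spearman's rho. The genes of a pair were read from the same libraries, so depth and scaling were shared. The share of pairs of other genes that passed the same threshold was not computed.

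The tightest pairs were Nr4a1 with Irs2 (r = 0.88, permutation p of 0.00014; rho = 0.85, permutation p of 0.00034) and Nr4a1 with Nr4a2 (r = 0.88, permutation p of 4e-05; rho = 0.84, permutation p of 0.00035). Adjusted permutation p-values of these r were 0.00126 and 0.00112. Without the 2 mice farthest from the median of Nr4a1, r was 0.81 and 0.80. Within batch 1 (8 mice) r was 0.88 and 0.85, and within batch 2 (12 mice) 0.86 and 0.90. Both relations therefore held in each batch.

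Ppargc1a followed Nr4a3 (r = 0.81 with a permutation p of 0.00013, rho = 0.70 with a permutation p of 0.00224). The adjusted permutation p of r was 0.00126, and r was 0.66 without the 2 mice farthest from the median of Ppargc1a. This relation was that of batch 2, where r was 0.94, and within batch 1 r was -0.87. It did not hold within batch 1. Sik1 with Nr4a1 gave r = 0.77 (permutation p of 0.00018; rho = 0.76, permutation p of 0.00052), with 0.96 in batch 2 and 0.25 in batch 1.

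Over the 21 pairs without Ppargc1b, r lay between 0.42 and 0.96 in batch 2 and between -0.87 and 0.88 in batch 1. The median r of all 28 pairs was -0.04 within batch 1. Most of the shared variation was thus seen among the mice of batch 2. Ppargc1b stood aside: its 7 pairs had r between -0.25 and 0.14, and none passed the adjusted threshold.

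**Figure D4:**
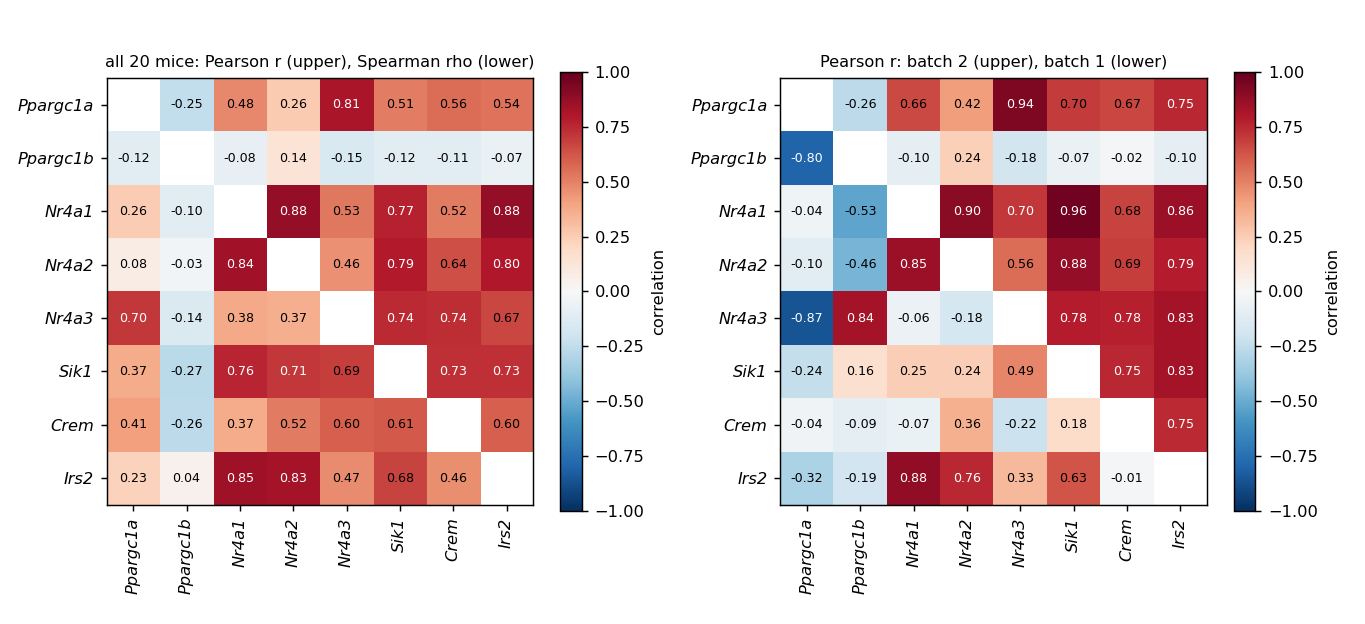
Correlation of adjusted log2 CPM between the 8 genes; left, Pearson's r (upper triangle) and Spearman's rho (lower triangle) over 20 mice; right, Pearson's r within batch 2 (upper) and within batch 1 (lower). In the left panel all pairs without Ppargc1b are positive, and the right panel shows r of 0.94 for Ppargc1a with Nr4a3 in batch 2 against -0.87 in batch 1.

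For each gene the most similar other genes among 13625 were noted by the same r over 20 mice, as a description. Ppargc1a was nearest to Foxo1 (r = 0.88), a fasting-responsive factor, and to Cnksr3 (0.88). Nr4a1 and Nr4a2 shared Btg2, an antiproliferative early response gene, as nearest gene outside the 8 (r = 0.88 and 0.89), followed by Hbp1 (0.87) and Mnt (0.86). Irs2 itself was the gene most similar to Nr4a1 of all 13625. The nearest genes of Nr4a3 were Tgoln1 (0.92) and Rbp7 (0.91), those of Sik1 the phosphate transporter Slc20a1 (0.89) and Zbtb21 (0.86), those of Crem Rcc2 (0.88) and Impact (0.88), those of Irs2 Mafk (0.86) and Flcn (0.84), and those of Ppargc1b Ubtd2 (0.80) and Igsf3 (0.80).

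Other genes of the pathways were counted from lists. In the filtered edgeR fit none of the 9 pathway lists held a gene that passed the adjusted threshold for treatment. Arrdc3, Per1 and Cebpb passed it both under DESeq2 and in edgeR without the filter on low counts. Of 14 other early genes induced by cAMP, 12 were higher in HK-treated mice, 4 of them at an unadjusted p under 0.05, and the median of the list was 0.67 on the log2 scale beside 0.002 for all genes tested. The lowest p-values were those of Arrdc3, an arrestin-like protein (0.85, SE 0.169, unadjusted p of 6.23e-05, adjusted p of 0.358), and Per1, a clock gene with CRE in its promoter (0.99, SE 0.215, unadjusted p of 0.000161, adjusted p of 0.440). Between batches 12 of the 14 were higher in batch 2 at the adjusted threshold, with a median of 1.47.

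Arrdc3 was 84.1 ± 39.9 CPM in HK-treated mice (SD, n = 10) and 45.0 ± 15.2 CPM in untreated mice. Per1 was 98.8 ± 55.3 against 47.0 ± 23.4 CPM. Both had SDs in the treated group that were above those of the untreated group, as the 5 members with an unadjusted p under 0.05 had.

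Of 27 genes of cAMP and CREB signalling, a list that includes Creb1 and CREB coactivators, 22 were higher in HK-treated mice. At an unadjusted p under 0.05 there were 3 of them, and the median was 0.07. Prkar2a, a regulatory subunit of protein kinase A, differed by 0.13 (unadjusted p of 0.0251). Of 17 genes of the class IIa HDAC, calcineurin and AMPK pathways, 12 were higher, with Prkab2 (0.24) and Camk2a (0.16) first by p. The differences named in this paragraph were small beside those of the 5 members with an unadjusted p under 0.05.

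The medians of the lists of PGC-1 partners, PGC-1 target genes and metabolic genes linked to NR4A stayed near 0. Of 18 partners, transcription factors and cofactors, 13 were higher, none at an unadjusted p under 0.05, with a median of 0.04. Sirt1 (0.20) and Mef2a (0.12) were first by p. Of 24 target genes 10 were higher and 14 lower, with a median of -0.02, and the lowest p-values were those of myoglobin, Mb (-0.23, unadjusted p of 0.0319), and Got2 (-0.10, unadjusted p of 0.0681). Of 15 metabolic genes linked to NR4A, 10 were higher, with a median of 0.04 and with Gys1 (-0.11) and Bpgm (0.14) first by p.

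Of 20 genes of insulin receptor signalling 14 were higher, 1 at an unadjusted p under 0.05, with a median of 0.03. That was Irs1, the other substrate of muscle (0.25, SE 0.0929, unadjusted p of 0.0127, adjusted p of 0.795), followed by Pik3r2 (-0.18, unadjusted p of 0.0733). Of 17 clock genes 14 were higher, 3 at an unadjusted p under 0.05, with a median of 0.20 and with Per1 and Ciart (1.09, and 0.69 without HK-treated male 3) first. Of 16 genes that answer to fasting and glucocorticoids 12 were higher, 5 at an unadjusted p under 0.05, with a median of 0.23. Cebpb (0.85, unadjusted p of 0.000349) and Tsc22d3 (0.42, unadjusted p of 0.00289) led that list, and 15 of its 16 genes were higher in batch 2 at the adjusted threshold. Cebpb also belonged to the other early genes induced by cAMP, as did Per1, so these lists shared genes.

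**Figure D5:**
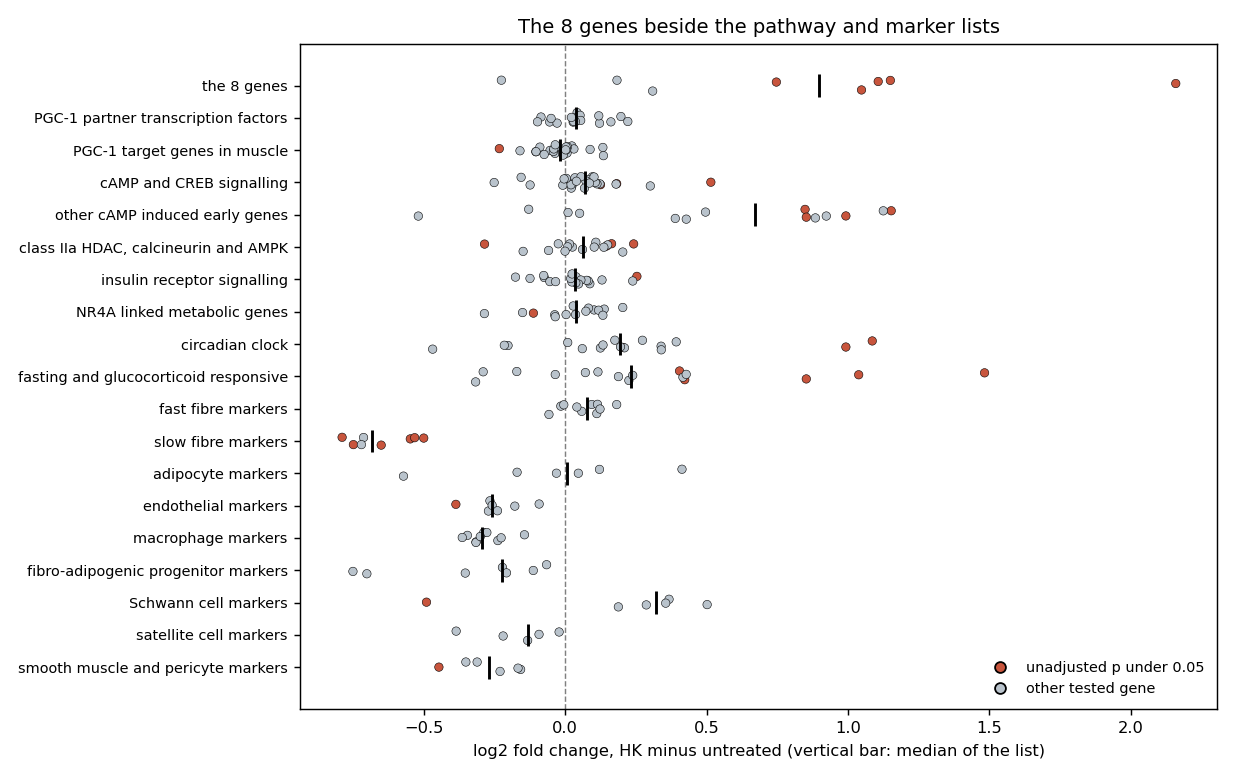
Log2 fold change for HK minus untreated of each tested gene in the 8 regulators, the 9 pathway lists and the 9 marker lists; black bars are medians and red points had an unadjusted p under 0.05. The other early genes induced by cAMP have a median of 0.67, the PGC-1 target genes -0.02 and the slow fibre markers -0.68.

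Markers of fibre types and other cells were set beside the treatment difference. All 8 slow fibre markers were lower in HK-treated mice, 6 at an unadjusted p under 0.05, with a median of -0.68. Their summed level had a lowest, median and highest value of 837.5, 2180 and 3828 CPM in HK-treated mice and of 893.5, 2992 and 6567 CPM in untreated mice. The count of 6 was 1 without untreated male 3, 2 or 3 without untreated male 1 or any of HK-treated males 1 to 4, and 1 under limma voom, and it reached 8 without untreated male 2. Fast fibre markers were higher for 7 of 10 (median 0.08).

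All 10 macrophage markers were lower in HK-treated mice (sum 21.7 to 234 CPM against 29.7 to 302 CPM), as were all 7 of fibro-adipogenic progenitors (184 to 877 against 261 to 1398 CPM), all 7 of endothelium (74.9 to 234 against 135 to 241 CPM), all 6 of smooth muscle (128 to 360 against 207 to 422 CPM) and all 5 tested of satellite cells (26.6 to 44.9 against 30.3 to 50.8 CPM). Of the Schwann cell markers 5 of 6 were higher (53.3 to 125 against 31.0 to 134 CPM), and of the adipocyte markers 3 of 6 (73.8 to 306 against 93.8 to 280 CPM). Across these lists, 1 marker each of endothelium, smooth muscle and Schwann cells had an unadjusted p under 0.05, and all 3 were lower. No marker was at 0 in all mice, and none passed the adjusted threshold. Their part in the differences of the 8 genes was not tested.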

How the data were processed

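The authors aligned the reads with STAR 2.6.1c to GRCm38.p6 and deposited whole-number read counts per gene, quantified on GENCODE (M25); whether strand was used is not given in the sources used here. Symbols and coordinates came from GENCODE M21 of the same build, where 55141 identifiers matched and 260 (0.00127% of counts) did not. Counts were tested with edgeR 4.0.16 in R 4.3.3 (TMM, filterByExpr, quasi-likelihood F test, batch, sex and treatment in the model, Benjamini-Hochberg over 13626 genes, or over 13800 for the interactions). DESeq2 1.42.0 and limma 3.58.1 (voom) served as alternatives, with subsets and each mouse left out in turn. Correlations used log2 CPM with a prior count of 2. The exact test enumerated 14400 arrangements. Replicates were separate mice. The edgeR step was tested on data with known changes. The genes, lists and tests were chosen with earlier results of these data known. The named genes were the 8 members, the 2 genes of each pathway list with the lowest treatment p and the 2 genes most similar to each member; further genes were named after their values were seen. A gene of the cAMP signalling list that this rule names is not reported here. Promoters were RefSeq sequences, available here for 5 members.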

Additional observations from a re-analysis of the deposited data

Results flagged for a closer look

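For each of the 8 genes the lowest or highest mouse was set against the other 4 of its sex and treatment, which made 32 groups of 5. Gaps and ranges were taken on log2 CPM with a prior count of 2, so the CPM values below do not give these ratios. In 3 groups the gap to the nearest mouse exceeded Dixon's 95% critical value of 0.71 of the range. Chance passes it in about 1 group in 20. Each group of 5 held 2 mice of batch 1 and 3 of batch 2, and that rate takes no account of batch. HK-treated female 5 stood above the other HK-treated females for Ppargc1a, at 103.7 CPM (gap 0.810 of the range), beside a batch 2 median of 108 CPM. HK-treated male 4 stood below the other HK-treated males for Ppargc1b, at 2.945 CPM (0.759). Untreated male 4 stood below the other untreated males for Irs2, at 15.21 CPM (0.732). All 3 mice belonged to batch 2.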

How the results depend on the processing

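Without the filter on low counts 247 genes were called higher and 255 lower with HK, 6 of the 8 genes were called higher and 1 was lower at an unadjusted p under 0.05; 3 were called lower in males, with 2 higher and 4 lower in males at an unadjusted p under 0.05, and 1 was called lower in batch 2. DESeq2 called 6 genes higher and 1 lower with HK, and gave 1 of the 8 an unadjusted p under 0.05 for treatment by batch. Limma voom turned the sex difference of Nr4a2 to 0.018 and of Irs2 to -0.032 and the treatment by batch term of Nr4a3 to -0.19, and called 1 of the 8 lower in batch 2. The cause of the changes under DESeq2 and limma voom was not tested. Here and below, counts of the 8 genes at an unadjusted p under 0.05 come without the share of all genes. These counts therefore do not show whether the 8 genes stood out from other genes in the same setting.

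For treatment, 3 of the 8 were higher at an unadjusted p under 0.05 without covariates, 3 in batch 1 alone and 1 in females alone, where Crem was at -0.071; Ppargc1a was at 0.11 in batch 1 and at 0.35 in males. Every subset holds fewer mice. The replicate numbers did not pair the mice (r over 0.1 in 1 of 10 pairs, -0.33 to 0.23; 9 of 20 mice correlated best with their own number). With the replicate block no gene was called and 4 of the 8 genes were higher at an unadjusted p under 0.05, with Sik1 at 1.08 and Nr4a3 at 0.85 (unadjusted p of 0.0877 in edgeR).

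For sex, genes called higher and lower in males numbered 777 and 539 in batch 1, 484 and 394 in batch 2, 251 and 238 in untreated mice and 398 and 253 in HK-treated mice. Of the 8, 1 was called higher and 1 lower in males in batch 1, where 1 was higher and 4 were lower at an unadjusted p under 0.05; at that p 0 were lower in batch 2, 4 in untreated mice and 0 in HK-treated mice, and 1 was higher in HK-treated mice. Sex differences changed sign for Ppargc1b (0.042) and Crem (-0.29) in batch 1, Irs2 (-0.029) in batch 2, Ppargc1a (-0.38), Crem (-0.28) and Irs2 (-0.56) in untreated mice, and Ppargc1b (0.022), Nr4a1 (0.027), Nr4a2 (0.51) and Nr4a3 (0.39) in HK-treated mice.

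For batch, 1698 genes were lower in batch 2 in males, 759 were higher and 738 lower in females, 1093 and 1099 in untreated mice, and 690 and 786 in HK-treated mice; at an unadjusted p under 0.05, 0 of the 8 were lower in males, untreated or HK-treated mice. The median r over the pairs was 0.77 without adjustment and -0.040 within batch 1. It was 0.36 without the 2 mice farthest from the median of the first gene of each pair. Within batch 1 r was -0.87 for Ppargc1a with Nr4a3, -0.22 for Nr4a3 with Crem and -0.012 for Crem with Irs2.

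Leaving out each mouse in turn, the number of the 8 at an unadjusted p under 0.05 was 4 to 6 for higher with HK, 0 to 2 for lower in males, 0 to 1 for lower in batch 2, 0 to 5 for a larger HK difference in males (0 without HK-treated male 3) and 0 to 2 for a larger one in batch 2. The number called was 0 to 1 for lower in males and 0 to 1 for lower in batch 2, and 0 to 1 gene of all was called lower with HK. Sex differences ranged from -0.038 to 0.15 for Crem and from -0.081 to 0.31 for Irs2, and treatment by batch terms from -0.031 to 0.23 for Ppargc1b, -0.42 to 0.41 for Nr4a3 and -0.088 to 0.34 for Crem. Depth limits Nr4a2 most, with as few as 9 counts in a mouse.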
